A study of Saccharomyces cerevisiae with 12 samples.

Results

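The genes described here make and remodel the glucan of the yeast cell wall. They are FKS1 and GSC2, GAS1, GAS3, GAS5 and BGL2, CRH1 and UTR2, and KRE6 and SKN1, taken by gene symbol from the probe sets of an expression array. All 10 were found among the 5449 genes with a symbol, and each had 1 probe set. RNA of budding yeast (Saccharomyces cerevisiae) was hybridised to 12 Affymetrix arrays in 4 groups of 3. The groups were wild-type BY4741 sampled at 0 minutes without treatment, wild-type BY4741 after 2 h with 100 µM sodium arsenate, slt2-deficient cells in the BY4741 background sampled at 0 minutes without treatment, and slt2-deficient cells after 2 h with 100 µM sodium arsenate. All were grown at 30 °C in rich YEPD medium to exponential phase. BY4741 is a haploid laboratory strain with the a mating type, and arsenate is a toxic analogue of phosphate. SLT2 encodes the MAP kinase at the end of the cell wall integrity cascade. The labels do not say how SLT2 was disrupted or whether more than 1 clone was used. Treated cells were also 2 h longer in culture, and with no untreated sample of that time among the groups the effect of arsenate cannot be told apart from that of culture time.

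Glucan is the main load-bearing polymer of the yeast wall. A synthase in the plasma membrane, controlled by the small GTPase Rho1, spins the long chains, and enzymes outside the membrane lengthen, branch and cut them and join them to chitin and to a second, shorter type of glucan that anchors wall proteins. When the wall is damaged, Slt2 activates the transcription factors Rlm1 and Swi4 with Swi6, which raise many wall genes. GSC2, also called FKS2, is known as the synthase gene that is low in cells growing on glucose and is raised by wall stress, by calcium signalling and by exhaustion of glucose, whereas FKS1 serves growing cells.

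Values are log2 signals, so that a difference of 1 is a doubling. Levels are those of single arrays or group means ± SD over 3 arrays, and a log2 fold change is followed by its standard error (SE). A gene is called changed where the adjusted p of the linear model of limma, corrected over all 5449 genes, was under 0.05. The study's design calls the replicates independent but does not name separate cultures, so p-values cover only the spread between these arrays. In bulk RNA, fewer cells expressing a gene and less RNA per cell cannot be told apart. On every array the 10 genes were far above transcripts that the strain lacks. Their lowest value was 9.06, and LEU2, URA3 and MET17, which are deleted in BY4741, lay between 3.74 and 5.47. SLT2 lay between 10.66 and 11.01 on the wild-type arrays and between 5.22 and 5.81 on the slt2 arrays, as labelled. The genes specific to a cells had a mean of at least 11.57 on each array and those of alpha cells at most 6.94.

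The wild-type arrays differed from each other more than the slt2 arrays did, and each wild-type result below is to be read with that. Wild-type arsenate array 1 correlated with its replicates across genes at 0.672 and 0.779, and arrays 2 and 3 of that group with each other at 0.949. Wild-type untreated arrays correlated with each other at 0.963 to 0.984, and arrays within each slt2 group at 0.9958 or higher. Over all genes the median SD within a group was 0.21 for wild type untreated, 0.49 for wild type with arsenate, and 0.085 and 0.069 for slt2 without and with arsenate. On wild-type arsenate array 1 all 10 of a list of glucose-repressed genes were above every slt2 array, with a list mean of 12.62 where the other 11 arrays lay between 6.86 and 7.68. All 10 of a general stress list were above every slt2 array on wild-type arsenate arrays 1 and 2 and on wild-type untreated array 2, with means of 13.91, 13.02 and 11.65, while the slt2 arrays lay between 9.37 and 10.26. All 10 ribosome biogenesis genes were below every slt2 array on these 3 arrays and on wild-type arsenate array 3, with means of 8.68, 11.55, 11.74 and 12.25. On untreated array 3 of wild type 9 of these 10 were. The excess of 3' over 5' signal of 7 control transcripts, which grows as RNA degrades, was 1.59 for wild type untreated 2, 1.79 for wild type arsenate 2, and from 0.92 to 1.17 on the others. The arsenate-responsive genes ARR2 and ARR3 had a mean of 4.89 to 6.37 on the 6 untreated arrays and of 9.77 to 12.24 on the 6 treated ones, as labelled. The part of these features in the results for the 10 genes was not tested. The arsenate effects in wild type and the main genotype differences are therefore also given without wild-type untreated array 2 and wild-type arsenate arrays 1 and 2, called the 3 deviating arrays below. That run keeps 9 arrays, holds 1 arsenate-treated wild-type array, and assumes that this array varies like those of the other groups. Wild-type untreated array 1 is kept in it. On that array 7 of the 10 glucose-repressed genes were above every slt2 array and 1 was below.

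**Figure D1:**
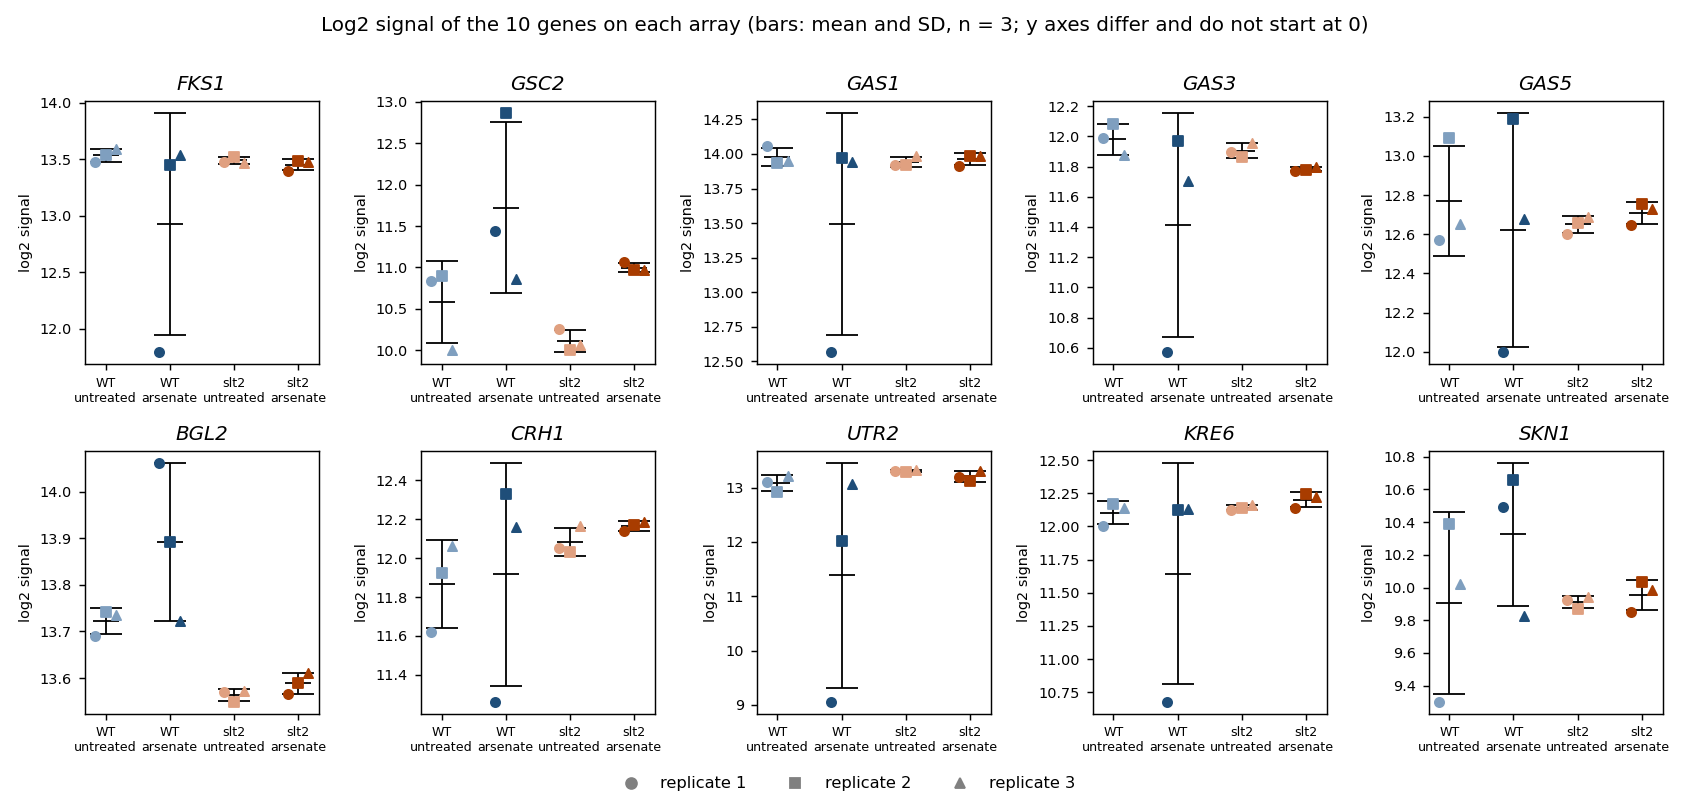
Log2 signal of each of the 10 genes (y axis) on each array, by group (x axis), with the marker shape giving the replicate number and the bars the mean and SD of 3 arrays. GSC2 is higher on all 3 slt2 arsenate arrays (10.96 to 11.06) than on the slt2 untreated arrays (10.005 to 10.25), while wild-type arsenate array 1 is the lowest of the 12 arrays for 7 genes.

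In slt2 cells GSC2 rose after arsenate, and none of the other 9 genes passed the test. GSC2 (YGR032W), the stress-associated catalytic subunit of glucan synthase, had log2 signals of 10.25, 10.005 and 10.07 on the untreated slt2 arrays and 11.06, 10.97 and 10.96 on the arsenate-treated ones. The groups did not overlap, and the lowest treated array was above the highest untreated one by more than either group spread. In the model fitted to the 6 slt2 arrays the log2 fold change was 0.89 (SE 0.075, adjusted p = 0.00421 with limma), a 1.85-fold rise with a 95% confidence interval from 1.64 to 2.10. It was the 40th largest rise among the 5449 genes. This model called 2.46% of all genes (104 higher and 30 lower), and 1 of the 10 genes of glucan synthesis and remodelling.

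The call of GSC2 in slt2 depended on whose spread was used. In the model of all 12 arrays, whose spread comes largely from wild type, the same difference had an SE of 0.43 and was not called (adjusted p = 0.99997). That model called 0.0367% of all genes for the arsenate effect in slt2, and none of the 10 genes. An unadjusted p under 0.05 was found for 71 of all 5449 genes and for 0 of the 10. Without the 3 deviating wild-type arrays, the adjusted p was 0.0952. On the 6 slt2 arrays the call held in all 12 alternatives tried, with log2 fold changes from 0.84 to 0.96 and adjusted p from 0.000622 to 0.0287 (limma). Among these, the filter, the replicate block and the other probe set could not move the estimate, since GSC2 had 1 probe set and the groups are balanced. Array 2 of untreated slt2 was the lowest of the 12 arrays for GSC2, and for 23.0% of all genes. Without that array the log2 fold change of GSC2 was 0.84, the lowest of the alternatives.

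FKS1 (YLR342W), which encodes the catalytic subunit used in growing cells, did not pass in slt2. Its signals were 13.47, 13.52 and 13.47 untreated and 13.39, 13.48 and 13.47 with arsenate. The groups overlapped, and the log2 fold change was -0.038 (SE 0.048, adjusted p = 0.769, limma on the slt2 arrays). Its 95% confidence interval, from -0.15 to 0.077, lay wholly below that of GSC2, from 0.71 to 1.07. FKS1 and GSC2 are near-identical in parts of their sequence, and the probes were not analysed here, so a share of signal from the paralog cannot be told apart in either probe set.

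None of the enzymes that lengthen glucan, nor BGL2, passed in slt2. GAS1 (YMR307W), the main glucanosyltransferase that lengthens glucan chains, had a log2 fold change of 0.020 (SE 0.048), and its relative GAS5 (YOL030W) one of 0.059 (SE 0.052). GAS3 (YMR215W), a less studied relative, had signals of 11.90, 11.86 and 11.96 untreated and 11.77, 11.78 and 11.80 with arsenate. These groups did not overlap, all treated arrays being lower, but the difference of -0.12 (SE 0.047) did not pass after adjustment (unadjusted p = 0.0383, adjusted p = 0.264, limma). In this 6-array model 909 of all 5449 genes had an unadjusted p under 0.05, and 2 of the 10 did. With array weights in the 12-array model GAS3 passed (-0.15, adjusted p = 0.0451, limma), in a setting that called 565 of all 5449 genes. BGL2 (YGR282C), an abundant wall glucanase that also transfers glucan, stayed between 13.55 and 13.61 on all 6 slt2 arrays, with a log2 fold change of 0.025 (SE 0.042). Groups did not overlap for GSC2, higher, and GAS3, lower, 2 of the 10 genes. Over all genes this was the case for 22.6%.

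The enzymes that join chitin to glucan and the genes of the shorter glucan did not pass in slt2 either. The log2 fold change was 0.081 (SE 0.053) for CRH1 (YGR189C) and -0.095 (SE 0.060) for UTR2 (YEL040W), also called CRH2, both transglycosylases that attach chitin to glucan. CRH1 lay at 12.05, 12.03 and 12.17 untreated and at 12.14, 12.17 and 12.19 with arsenate, so the groups overlapped. UTR2 lay at 13.30, 13.29 and 13.33 untreated and at 13.20, 13.12 and 13.32 with arsenate, which also overlapped. For the paralogs KRE6 (YPR159W) and SKN1 (YGR143W), both with a part in making the shorter glucan, it was 0.062 (SE 0.049) and 0.045 (SE 0.061). Over the 9 genes other than GSC2 the adjusted p ran from 0.264 to 0.900, and the widest reach of their 95% confidence intervals was from -0.24 to 0.21, or 84.7% to 115.5% of the untreated signal. The median log2 fold change was 0.035 over the 10 genes and 0.026 over all genes.

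**Figure D2:**
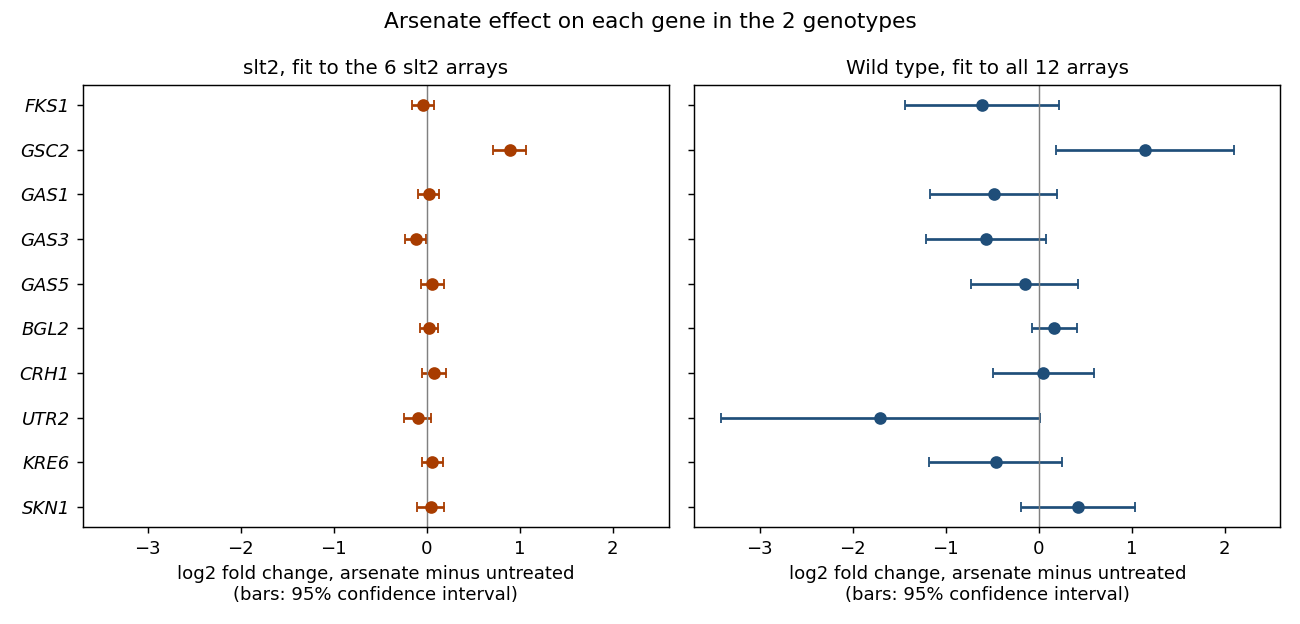
Log2 fold change of each gene after arsenate (x axis) with its 95% confidence interval, in slt2 from the fit to the 6 slt2 arrays and in wild type from the fit to 12 arrays. In slt2 the interval of GSC2 (0.71 to 1.07) is apart from those of the other 9 genes, which lie between -0.24 and 0.21, while the wild-type intervals are wide, up to -3.41 to 0.010 for UTR2.

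In wild type none of the 10 genes passed the test after arsenate, and GSC2 had the lowest p. GSC2 had signals of 10.83, 10.90 and 10.01 on the untreated arrays and 11.44, 12.87 and 10.86 on the arsenate-treated ones, a mean of 10.58 ± 0.50 (SD, n = 3) against 11.72 ± 1.03. The groups overlapped, since treated array 3 lay just under untreated array 2. The log2 fold change was 1.14 (SE 0.43, unadjusted p = 0.0242, adjusted p = 0.299, limma). The model called 0.0184% of all genes in this comparison, and 696 genes had an unadjusted p under 0.05. GSC2 was the 1 of the 10 with such a p. It passed when wild-type arsenate array 3 was left out (1.58, adjusted p = 0.0305), a setting that called 1608 genes, and with array weights (2.35, adjusted p = 0.0108), which called 1269. The estimate was 0.57 without arsenate array 2 (adjusted p = 0.213, limma) and 0.44 without the 3 deviating arrays. The latter sets treated array 3, at 10.86, against untreated arrays 1 and 3, at 10.83 and 10.01.

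The same-numbered arrays give the arsenate difference of GSC2 in each genotype side by side. Treated minus untreated, it was 0.61, 1.97 and 0.85 for wild-type numbers 1, 2 and 3, and 0.81, 0.97 and 0.90 for slt2. All 6 differences were above 0. The wild-type differences lay above those of 68.0%, 99.2% and 99.2% of all genes, and the slt2 differences above 99.4%, 98.5% and 99.4%. The numbers were not shown to pair the samples, so these are single differences of 2 arrays.

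UTR2 had the largest estimate of the 10 in wild type by size, and 2 of the 3 treated arrays were low. Its signals were 13.10, 12.93 and 13.22 untreated and 9.06, 12.01 and 13.07 with arsenate. Treated arrays 1 and 2 were below every untreated array, and treated array 3 lay among the untreated ones. Relative to the untreated mean the arrays stood at -4.03, -1.07 and -0.011, the first below all but 0.752% of the genes on that array and the second below all but 1.38%. The log2 fold change was -1.70 (SE 0.77, adjusted p = 0.299, limma). It was -2.55 without arsenate array 3, where it passed (adjusted p = 0.0314), -0.54 without array 1 and -0.089 without the 3 deviating arrays (adjusted p = 0.658 and 0.902). With array weights it passed at -1.08 (adjusted p = 0.0134).

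Wild-type arsenate array 1 stood apart for most of the other genes. It was the lowest of the 12 arrays for FKS1, GAS1, GAS3, GAS5, CRH1, UTR2 and KRE6, 7 of the 10 genes, and the lowest for 33.2% of all genes. FKS1 was at 13.48, 13.54 and 13.59 untreated and at 11.79, 13.45 and 13.54 with arsenate. GAS1 was at 14.05, 13.93 and 13.95 untreated and at 12.57, 13.97 and 13.94 with arsenate. KRE6 was at 12.004, 12.17 and 12.14 untreated and at 10.68, 12.12 and 12.13 with arsenate. In each of these, treated arrays 2 and 3 lay close to the untreated arrays and array 1 lay 1.41 to 1.74 below the untreated mean. GAS3 showed the same on array 1 (-1.41), and its array 3 was -0.28 from the untreated mean. The log2 fold changes were -0.61 for FKS1, -0.48 for GAS1, -0.57 for GAS3 and -0.46 for KRE6 (SE 0.29 to 0.37, adjusted p from 0.299 to 0.343). Without arsenate array 1 these were -0.042, -0.022, -0.15 and 0.023. Without the 3 deviating arrays they were 0.0055, -0.058, -0.23 and 0.061.

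None of GAS5, CRH1, BGL2 and SKN1 passed in wild type either. GAS5 was at 12.57, 13.09 and 12.65 untreated and at 11.999, 13.19 and 12.68 with arsenate. In both wild-type groups its highest value was on array 2. CRH1 was at 11.62, 11.92 and 12.06 untreated and at 11.26, 12.33 and 12.16 with arsenate. BGL2 was at 13.69, 13.74 and 13.74 untreated and at 14.06, 13.89 and 13.72 with arsenate, and it was highest on array 1, on which most of the others were lowest. SKN1 was at 9.30, 10.39 and 10.02 untreated and at 10.49, 10.66 and 9.83 with arsenate, and it was highest on array 2, whereas its paralog KRE6 was lowest on array 1. Their log2 fold changes were -0.15, 0.049, 0.17 and 0.42 (SE 0.26, 0.24, 0.11 and 0.28, adjusted p from 0.315 to 0.894). Without the 3 deviating arrays they were 0.065, 0.32, 0.0098 and 0.17. The groups overlapped for all 10 genes in wild type, where 8.57% of all genes did not overlap. The median log2 fold change was -0.30 over the 10 genes and 0.056 over all genes.

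**Figure D3:**
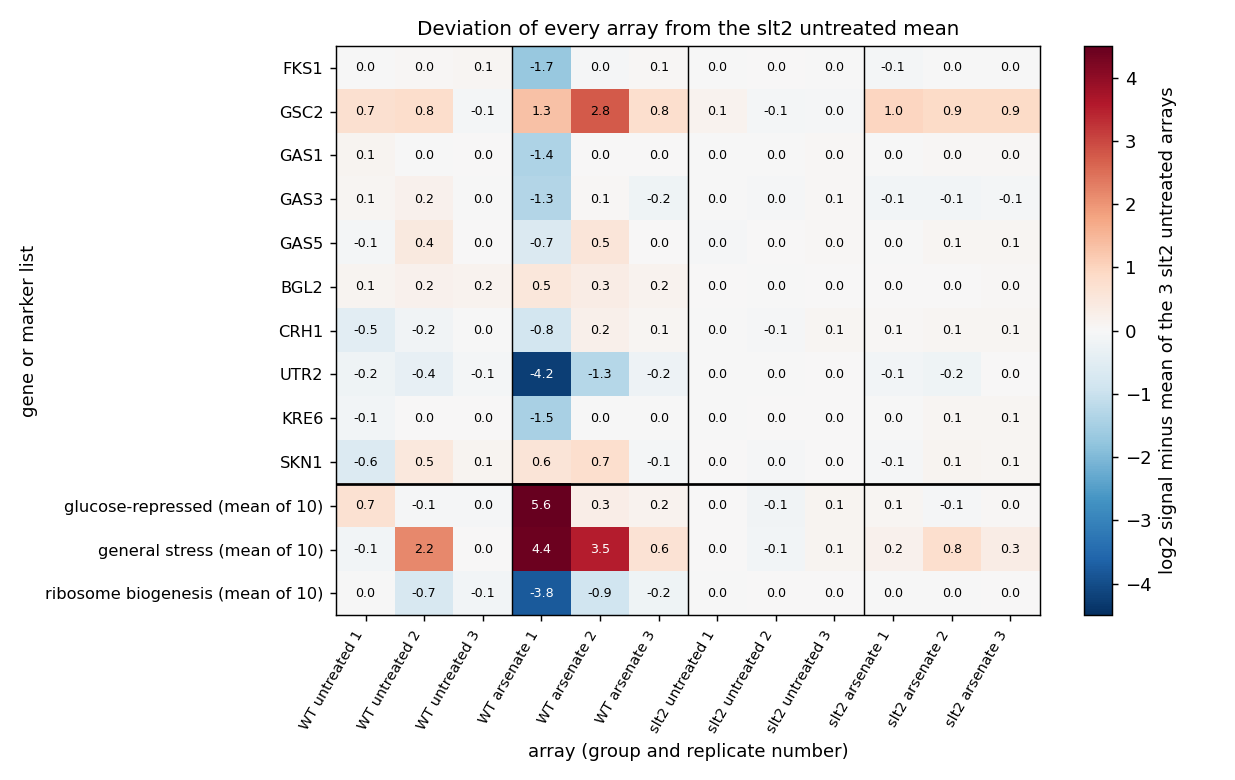
Log2 signal of each gene, and mean of 3 marker lists of 10 genes each (rows), minus the mean of the 3 slt2 untreated arrays, on each of the 12 arrays (columns). GSC2 is at 0.75 to 2.76 on the arsenate arrays, but also at 0.73 and 0.79 on wild-type untreated arrays 1 and 2, UTR2 is at -4.25 on wild-type arsenate array 1, and the same array has the glucose-repressed list at 5.61 and ribosome biogenesis at -3.77.

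For none of the 10 genes did the arsenate effect in slt2 differ from that in wild type by the test, with values given as slt2 minus wild type. The model called 0% of all genes in this comparison, with 28 genes at an unadjusted p under 0.05 and none of the 10 among them. For GSC2 the difference was -0.25 (SE 0.61, adjusted p = 0.851, limma), with a 95% confidence interval from -1.61 to 1.10. The sign turned, to 0.45, without the 3 deviating wild-type arrays, and with array weights, which called 671 genes, it was -1.44 and passed (adjusted p = 0.0352). For UTR2 it was 1.61 (SE 1.09, adjusted p = 0.711), -0.0056 without those arrays and 0.97 with array weights, where it passed (adjusted p = 0.0351). For the other 8 genes it ran from -0.37 for SKN1 to 0.57 for FKS1, with adjusted p of 0.711 or more. The 95% confidence intervals reached beyond 1 log2 unit for 8 of the 10 genes, all but BGL2 (-0.49 to 0.20) and CRH1 (-0.74 to 0.80).

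Without arsenate, slt2 and wild-type cells did not differ in any of the 10 genes by the test. The largest difference, slt2 minus wild type, was that of GSC2 at -0.47 (SE 0.43, adjusted p = 0.9996, limma). The slt2 arrays, at 10.005 to 10.25, were below wild-type arrays 1 and 2 (10.83 and 10.90) and on the level of wild-type array 3 (10.01). The model called 0.0184% of all genes. An unadjusted p under 0.05 was found for 205 of all 5449 genes and for 0 of the 10. Groups did not overlap for 26.8% of all genes, and for 2 of the 10. BGL2 was lower in slt2, with 13.57, 13.55 and 13.57 against 13.69, 13.74 and 13.74, a difference of -0.16 (SE 0.11, adjusted p = 0.9996). UTR2 was higher in slt2, with 13.30, 13.29 and 13.33 against 13.10, 12.93 and 13.22, a difference of 0.22 (SE 0.77, adjusted p = 0.9996). These SE pool the spread of all 4 groups, including wild type with arsenate, where the SD was 2.08 for UTR2 and 0.17 for BGL2. In the untreated wild-type and slt2 groups the SD was 0.15 and 0.016 for UTR2, and 0.028 and 0.012 for BGL2. Without the 3 deviating arrays the differences were -0.15 for BGL2 and 0.14 for UTR2. Their signs could not turn there, since the groups do not overlap. For the other 7 genes the difference lay between -0.12 for GAS5 and 0.21 for CRH1.

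With arsenate, slt2 and wild type again did not differ in any of the 10 genes after adjustment, while BGL2 and UTR2 had an unadjusted p under 0.05. The model called 0.0367% of all genes here, and 1796 had an unadjusted p under 0.05. BGL2 was lower in slt2, with 13.56, 13.59 and 13.61 against 14.06, 13.89 and 13.72 (-0.30, SE 0.11, unadjusted p = 0.0189, adjusted p = 0.142, limma). UTR2 was higher in slt2, with 13.20, 13.12 and 13.32 against 9.06, 12.01 and 13.07 (1.83, SE 0.77, unadjusted p = 0.0386, adjusted p = 0.146). KRE6 was at 12.14, 12.25 and 12.23 in slt2 against 10.68, 12.12 and 12.13, a difference of 0.56 (SE 0.32, adjusted p = 0.221). In these 3 genes the groups did not overlap, as in 40.1% of all genes. Without the 3 deviating arrays the differences were -0.13 for BGL2, 0.14 for UTR2 and 0.069 for KRE6. GSC2 was at 10.96 to 11.06 in slt2, inside the wild-type range from 10.86 to 12.87, a difference of -0.72 (SE 0.43, adjusted p = 0.231) that turned to 0.14 without those arrays. The other 6 differences lay between -0.37 for SKN1 and 0.52 for FKS1. Where wild-type arsenate array 3 was left out, 3 of the 10 passed, with BGL2 at -0.39, GSC2 at -1.16 and UTR2 at 2.68 (adjusted p = 0.0186, 0.0401 and 0.0138), in a setting that called 2324 genes. With array weights, which called 2470 genes, 5 passed, with BGL2 at -0.30, GSC2 at -1.60, UTR2 at 1.11, SKN1 at -0.65 and GAS5 at -0.43.

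**Figure D4:**
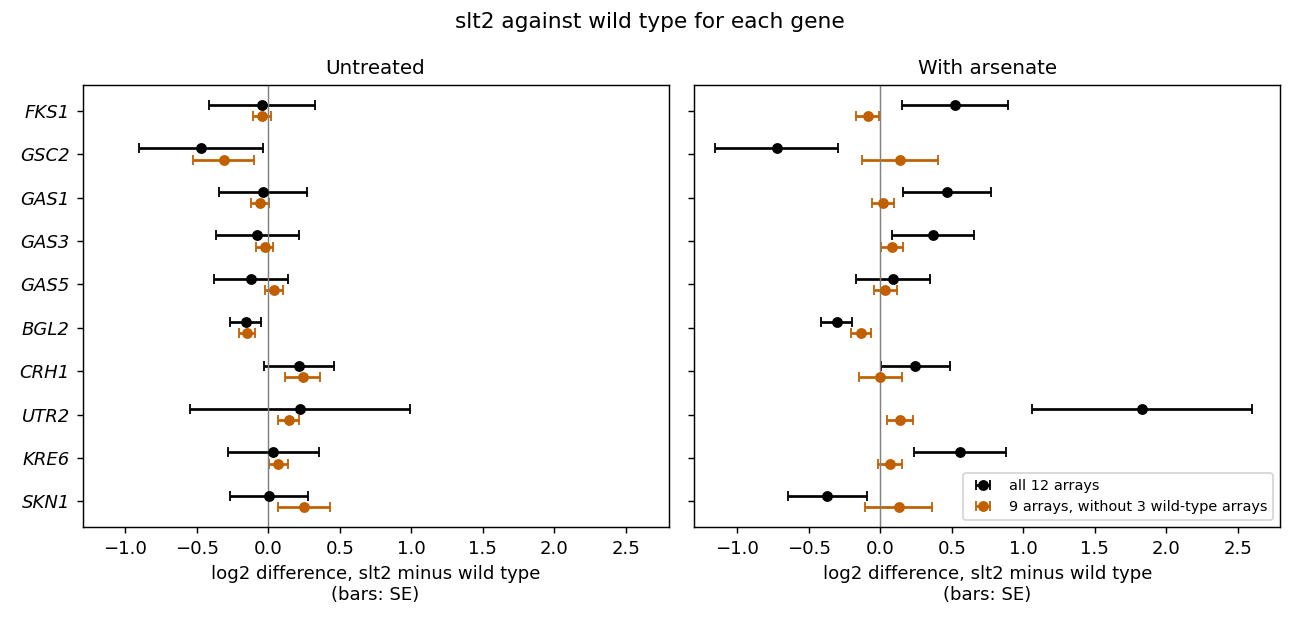
Difference between slt2 and wild type in log2 units (x axis) for each gene (y axis), untreated and with arsenate, with the SE as bars, from all 12 arrays and from the 9 arrays left without the 3 deviating wild-type arrays. With arsenate UTR2 goes from 1.83 to 0.14 and GSC2 from -0.72 to 0.14, while untreated GSC2 goes from -0.47 to -0.31.

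The genes differed in how much they varied over the arrays. Over the 6 slt2 arrays the range of a gene was between 0.061 for BGL2 and 0.20 for UTR2, apart from GSC2 with 1.06. Over the 6 wild-type arrays it ran from 0.37 for BGL2 to 4.16 for UTR2, with GSC2 at 2.86. The median SD of the 10 genes within a group was 0.13 for wild type without arsenate, 0.77 for wild type with it, and 0.037 and 0.052 for slt2.

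Other genes of the glucan pathway were read from 4 lists, with 2.46% of all genes called in slt2 as the background. In slt2, on the 6 slt2 arrays, 1 of 9 other genes of the shorter glucan rose and 0 fell. This was KNH1, a relative of KRE9 with a part in making that glucan (0.55, SE 0.098, adjusted p = 0.0452, limma). Its call was lost with a replicate term and without any 1 of slt2 untreated array 3 and slt2 arsenate arrays 1, 2 and 3 (adjusted p from 0.109 to 0.152). None of 9 genes that regulate or resemble the synthase passed, and SAC7 and LRG1, which switch Rho1 off, had the lowest p (-0.10 and -0.15). None of 15 other wall glucanases and transglycosylases passed, with ACF2 and SPR1, both glucanases, at -0.14 and 0.30. Of 4 transcription factors that act on wall genes none passed, and the lowest p were those of RLM1 (0.22, adjusted p = 0.113; 0.19 and adjusted p = 0.0400 with array weights) and of CRZ1, the calcineurin-dependent factor (0.12, adjusted p = 0.572). The list medians were 0.068, -0.0055, -0.029 and 0.10 in this order, against 0.026 over all genes.

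In the model of all 12 arrays no gene of these 4 lists passed in any of the 5 comparisons, where at most 0.0367% of all genes did. Among the genes named here, calls appeared in settings that also called many other genes. Without wild-type arsenate array 3, ROM1, ROM2 and DSE4 passed for arsenate in wild type, and ROM1, TUS1, KEG1, SUN4, SPR1, SWI4 and RLM1 for the genotypes with arsenate. With array weights, DSE4 passed in wild type, LRG1, KNH1, ACF2 and RLM1 in slt2, KNH1 for the difference of effects, and ROM1, TUS1, KEG1, SUN4, SWI4 and RLM1 for the genotypes with arsenate. After arsenate in wild type the lowest p were those of ROM1 and ROM2, which switch Rho1 on (1.33 and 0.38), of ROT2 and KRE1 of the shorter glucan (0.23 and 0.26), of the glucanase genes DSE4 and SCW11 of cell separation (0.56 and 0.40), and of RLM1 and CRZ1 (0.41 and 0.28). Without the 3 deviating arrays, ROM2 and RLM1 turned to -0.029 and -0.11, ROM1 was at 0.18, KRE1 at 0.11, SCW11 at 0.14 and CRZ1 at 0.15. Between the untreated genotypes, slt2 minus wild type, they were RHO1 (-0.24) and the synthase relative FKS3 (0.39), KNH1 (-0.44) and KEG1 (-0.31), SPR1 (-0.60) and SUN4 (0.26), and SWI4 (0.65) and CRZ1 (0.44), with FKS3 at 0.21 and CRZ1 at 0.29 without the 3 arrays. With arsenate they were ROM1 (-1.81) and TUS1, which also switches Rho1 on (-0.73), KEG1 (-0.64) and CWH41 (0.27), SUN4 (0.39) and SPR1 (-0.60), and SWI4 (0.56) and RLM1 (-0.53), and without the 3 arrays CWH41 was at -0.19, ROM1 at -0.60, TUS1 at -0.14, KEG1 at -0.39, SPR1 at -0.27 and RLM1 at -0.11. For the difference of the effects they were ROM1 (-1.31) and FKS3 (-0.50), KNH1 (0.47) and KEG1 (-0.33), DSE4 (-0.46) and SCW11 (-0.39), and RLM1 (-0.18) and CRZ1 (-0.15), and without them RLM1 was at 0.34, ROM1 at -0.17, FKS3 at -0.065, KEG1 at -0.14, SCW11 at -0.12 and CRZ1 at -0.032. For the arsenate effect in slt2 they were LRG1 and SAC7, KNH1 and ROT2 (0.13), SPR1 and ACF2, and RLM1 and CRZ1, with the estimates given above.

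Genes whose levels ran most like each of the 10 over the arrays were found by Pearson's r over the 12 arrays, as a description. For GSC2 these were GCR1, an activator of glycolytic genes, and MF(ALPHA)1, a pheromone gene of alpha cells (r = 0.943 and 0.937). Over the 9 arrays left without the 3 deviating ones, r was 0.821 and 0.809. MF(ALPHA)1 is 1 of the 3 alpha-cell genes, which lay between 5.05 and 8.45 on the 12 arrays. For UTR2 they were FSF1 and PAB1 (r = 0.9989 and 0.9973, and 0.918 and 0.698 over the 9 arrays). For FKS1 they were POL1 and POL30, both of DNA replication (r = 0.9961 and 0.9956, and 0.698 and 0.356). ERG4 and RPS21B ran with GAS1, YPT31 and SBH1 with GAS3, and PDR12 and EXG1 with GAS5. ECM19 and COS4 ran with BGL2, YKL068W-A and SCS3 with CRH1, PMP2 and YLR179C with KRE6, and EDC2 and HRK1 with SKN1. The 20 values ran from 0.934 to 0.9989 over 12 arrays and from 0.356 to 0.949 over 9. The 12 arrays include wild-type arsenate array 1, the lowest for 7 of the 10 genes, and the 9 arrays do not.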

How the data were processed

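The deposited values are log2 signals per probe set. The submitters' processing notes name RMA and Affymetrix Expression Console. That they are log2 follows from their size (3.05 to 14.91, array medians 9.98 to 10.20). No source used here says whether 1 RMA run covered all 12 arrays. Of 5814 probe sets, 5498 have 1 gene symbol, 0 several and 316 none; all 5498 matched a reference gene table (S. cerevisiae R64) by gene number. For 47 genes with several probe sets the one with the highest mean was kept, leaving 5449 genes. Arrays have no count depth, so their number limits the precision.

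Using limma 3.58.1 (lmFit, eBayes; R 4.3.3), 4 group means were estimated from the 12 arrays and, as a result of its own, the arsenate effect in slt2 from the 6 slt2 arrays. P-values were adjusted by Benjamini-Hochberg over 5449 genes. The fits were tested on simulated data. Named genes are the 10, SLT2, the deleted genes, up to 4 called members of each pathway list or the 2 with the lowest p, and the 2 genes most like each of the 10. The genes, lists and the 6-array model were chosen with earlier results of these data known. Same-numbered arrays of 2 groups deviated together at r from -0.17 to 0.47, over 0.1 in 7 of 12 pairs. These values do not settle whether the numbers pair samples. The main models left the numbers out, and a replicate block was run as an alternative. Figures used matplotlib 3.10.9 in Python 3.11.15.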

Additional observations from a re-analysis of the deposited data

How the results depend on the processing

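Of 1110 alternative values of the log2 changes of the 10 genes, 1036 kept their sign and side of the threshold, 58 turned sign, 17 gained a call and 0 lost one. GAS5 with array weights, for slt2 against wild type with arsenate, is counted both as a turned sign and as a gained call. Alternatives were array weights, centring, quantile normalization, a filter, the other probe set, the groups compared only (for the difference this is the full model), a replicate block, leaving out 1 array and leaving out the 3 deviating wild-type arrays. Many of the kept signs were fixed in advance. The filter, the groups compared only and the replicate block cannot move an estimate in this balanced design. Nor can the other probe set, since each of the 10 genes had 1, or leaving out an array of a group not compared. These alternatives could change only the SE and the adjusted p. Those for pathway genes were added after the data were seen. The cause of these shifts was not tested.

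Genes of the 10 called, 0 with 12 arrays, were 1 for the arsenate effect in slt2 with its own arrays alone. With array weights on 12 arrays they were 2 for the arsenate effect in slt2, 2 for wild type, 2 for the difference and 5 for slt2 against wild type with arsenate. Leaving out 1 array gave 0 to 2 for wild type and 0 to 3 for the genotypes with arsenate. Over the whole table, array weights called 565 genes for slt2 (419 on the 6 slt2 arrays), 1269 for wild type, 671 for the difference, 7 for the untreated genotypes and 2470 for the treated ones. The groups compared alone gave 134 for slt2, 0 for wild type and 1 for the treated genotypes. Without the 3 arrays the counts were 49, 3 and 1, with 2 for the untreated genotypes. On the 6 slt2 arrays, centring called 242 and quantile normalization 354. Leaving out 1 array gave 41 to 107 calls on the slt2 arrays, 1 to 6 for slt2 in the 12-array model, 1 to 1608 for wild type, 0 to 22 for the difference and 2 to 2324 for the treated genotypes.

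With the replicate block, 28 genes were called on the 6 slt2 arrays, where GSC2 kept its call (adjusted p = 0.0143), 2 for wild type and 1 for the treated genotypes. The block changed the call of none of the 10. In 7 of 12 same-number pairs the own number was the best match.

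Signs turned as follows. With array weights the arsenate effect in slt2 was -0.018 for GAS1 and -0.015 for SKN1 (-0.022 and -0.024 on the slt2 arrays), that in wild type 0.44 for GAS5 and -0.25 for CRZ1, and the untreated genotype difference 0.014 for GAS3. The difference of effects was -0.15 for GAS3, -0.41 for GAS5, -0.31 for CRH1, 0.060 for RLM1 and 0.30 for CRZ1. The treated genotype difference was -0.0038 for FKS1, -0.0042 for GAS1, -0.14 for GAS3, -0.43 for GAS5 and -0.14 for CRH1. With centring the slt2 effect was -0.018 for GAS1 and -0.013 for BGL2 in both models, and the untreated difference 0.013 for FKS1 and 0.022 for GAS1. With quantile normalization the slt2 effect was -0.0025 for BGL2 and -0.0031 for SKN1 (-0.0033 and -0.0027 on the slt2 arrays). Without the 3 arrays the wild-type effect was 0.0055 for FKS1, 0.065 for GAS5, 0.061 for KRE6, -0.029 for ROM2 and -0.11 for RLM1. The difference of effects was -0.044 for FKS1, 0.45 for GSC2, -0.0059 for GAS5, 0.015 for BGL2, -0.24 for CRH1, -0.0056 for UTR2 and 0.34 for RLM1. The untreated difference was 0.039 for GAS5, and the treated one -0.088 for FKS1, 0.14 for GSC2, 0.13 for SKN1 and -0.19 for CWH41.

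Leaving out 1 array, the wild-type effect ran from -0.16 to 0.38 for CRH1, -0.43 to 0.16 for GAS5 and -0.70 to 0.023 for KRE6. The difference of effects ran from -0.30 to 0.24 for CRH1, -0.34 to 0.024 for CRZ1, -0.10 to 0.49 for GAS5, -0.68 to 0.32 for GSC2 and -0.39 to 0.15 for RLM1. The untreated difference ran from -0.059 to 0.0016 for GAS1, -0.22 to 0.039 for GAS5, -0.015 to 0.068 for KRE6 and -0.30 to 0.25 for SKN1. The treated one ran from -0.082 to 0.45 for CRH1, -0.044 to 0.51 for CWH41, -0.042 to 0.83 for FKS1, -0.050 to 0.65 for GAS3 and -0.22 to 0.37 for GAS5.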
